A study of Mus musculus with 19 samples.

Results

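Nqo1, Gclm, Gclc, Txnrd1, Srxn1, Prdx1, Txn1, Nfe2l2 and Keap1 form a set of 9 antioxidant genes, and they are described here in B lineage cells sorted from immunized mice. The set was chosen by the germinal centre values of Nqo1, which is listed at 0 in every germinal centre library labelled knockout, and by textbook membership of the Nrf2 pathway for the other 8. Earlier results of these data were known at that point. The question was whether the other genes of the pathway follow Nqo1. Since the contrast in germinal centre B cells chose Nqo1, its values there are a description with no test. The germinal centre table lists all 9 genes among 17939. The 3 tables of the other cell types list 8 of them, all but Srxn1, among 19397.

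The 19 RNA-seq libraries fall into 6 groups, all from mice given sheep red blood cells intraperitoneally, with tissues taken on day 28. Mice labelled Pik3cg Knockout lack, by that label, the catalytic subunit p110 gamma of phosphoinositide 3-kinase, and the others are labelled Wild type. Splenic germinal centre B cells (CD95+/GL7+) gave 4 knockout-labelled and 3 wild-type-labelled libraries. Naive B cells of the spleen (CD3-/B220+/IgD+) gave 3 of each. Antibody-secreting cells (CD138+), all labelled wild type, gave 3 libraries from spleen and 3 from bone marrow. In the tables of naive and antibody-secreting cells, the headers call the libraries labelled wild type HET, so whether those mice were wild type or heterozygous cannot be told apart here. Whether the knockout was limited to B cells is not given in the sources used here, and neither are the mice's strain, age and allele. The design names 3 wild-type and 4 knockout mice but does not tie a library to a mouse, so p-values measure the spread between these libraries. Replicates are numbered as in the sample titles; the column names of germinal centre wild-type replicates 2 and 3 carry each other's number.

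Nfe2l2 encodes Nrf2, a basic leucine zipper transcription factor that, paired with a small Maf protein, binds the antioxidant response element in the control regions of detoxification and redox genes. Keap1 is the sensor of the pathway: it hands Nrf2 to the Cul3 and Rbx1 ubiquitin ligase for degradation, and oxidants or electrophiles that modify its cysteines let Nrf2 build up. The pathway is therefore set largely at the protein level, so the mRNA of Nfe2l2 and Keap1 is not a readout of Nrf2 activity. The targets fall into quinone reduction (Nqo1), glutathione synthesis (Gclc and Gclm), the thioredoxin cycle (Txn1 and Txnrd1) and peroxide removal (Prdx1 and Srxn1).

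The core letters of the antioxidant response element, TGACNNNGC, were searched on both strands of the RefSeq promoter windows (build GRCm38.p6, 250 bases before to 50 bases after each annotated start). Of the 9 genes, 8 had a window, and 5 of these held the letters. For comparison, 14.0% of the 27025 genes with a window and 12.4% of all 32851 windows held them. The matches are printed below, because they show which members carry the letters close to a start, with 10 bases on each side, along the gene's own strand. Capitals mark the match, which appears as its reverse complement where it lies on the opposite strand.
Nfe2l2: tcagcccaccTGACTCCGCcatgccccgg
Gclm: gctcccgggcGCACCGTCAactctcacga
Prdx1: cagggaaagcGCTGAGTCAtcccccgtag
Txnrd1: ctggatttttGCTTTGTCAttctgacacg
Srxn1: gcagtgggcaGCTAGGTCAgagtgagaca
The windows shown lie at chr2:75704885-75704913 for Nfe2l2 (minus strand), chr3:122245413-122245441 for Gclm (plus), chr4:116685456-116685484 for Prdx1 (plus), chr10:82859104-82859132 for Txnrd1 (plus) and chr2:152105542-152105570 for Srxn1 (plus). The match began 240 bases before the start in Nfe2l2, 134 before it in Gclm, 133 before it in Prdx1 and 92 before it in 1 of the 3 windows of Txnrd1, and at base 29 after the start in Srxn1. The windows of Nqo1, Txn1 and Keap1 held no match, which says only that these letters are not in these 300 bases. Of the other Nrf2 target genes listed further on, 6 of 22 with a window held the letters. So did 3 of 11 regulators of the pathway and 2 of 21 other thioredoxin, glutathione and peroxide genes with a window. Whether Nrf2 bound any of these windows was not measured.

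The windows of Nqo1 and Prdx1 are printed whole, because these 2 members had germinal centre libraries that did not overlap between the genotype labels. That of Nqo1 is chr8:107403156-107403455, minus strand, with no match, and that of Prdx1 is chr4:116685349-116685648, plus strand, with its match in capitals.
Nqo1: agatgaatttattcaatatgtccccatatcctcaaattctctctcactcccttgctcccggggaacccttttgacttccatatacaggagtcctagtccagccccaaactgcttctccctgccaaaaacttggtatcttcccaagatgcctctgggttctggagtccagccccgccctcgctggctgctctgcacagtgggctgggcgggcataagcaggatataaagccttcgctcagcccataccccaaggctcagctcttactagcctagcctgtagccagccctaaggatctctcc
Prdx1: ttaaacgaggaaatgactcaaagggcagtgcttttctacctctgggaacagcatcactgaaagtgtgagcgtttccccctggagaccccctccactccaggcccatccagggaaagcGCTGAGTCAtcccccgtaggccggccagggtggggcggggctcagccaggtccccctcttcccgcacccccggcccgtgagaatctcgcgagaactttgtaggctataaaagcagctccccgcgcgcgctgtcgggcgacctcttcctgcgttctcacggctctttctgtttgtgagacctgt

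Values are counts per 1000000 assigned reads (CPM). The most common low value of each library was taken as the worth of 1 read. This put the depth at 10.2 to 21.6 M reads a library (1 M is 1000000), where 3 reads are worth 0.139 to 0.293 CPM. This floor covers counting error only. The label check does not settle the genotype: Pik3cg was at 33.6 ± 30.3 CPM (SD, n = 4) in germinal centre libraries labelled knockout and 36.7 ± 18.7 CPM (n = 3) in those labelled wild type, and at 106.5 ± 17.6 and 112 ± 2.4 CPM in naive B cells (n = 3 each). The germinal centre libraries also differed in cell type markers. The sum of 8 germinal centre markers ran from 2262.5 to 3060.7 CPM in the 4 labelled knockout and from 246.6 to 288.8 CPM in the 3 labelled wild type, in which S1pr2, Gcsam and Rgs13 were listed at 0. The sum of 12 T cell markers ran from 772.5 to 1827.5 CPM and from 17.0 to 44.6 CPM, and 8 of the 12, among them Cd3e, Cd3d, Cd3g and Cd4, were at 0 in every library labelled wild type. The sum of 12 monocyte and macrophage markers ran from 178.1 to 2421.9 and from 90.3 to 236.2 CPM (9 of the 12 at 0 in all labelled wild type, Lyz2 and Csf1r among them), and that of erythroid markers from 29.7 to 2977.5 and from 0.1 to 2.4 CPM. The sum of 8 plasma cell markers overlapped, at 4098.6 to 12082 and 7291.7 to 11555.2 CPM, but Jchain makes up much of it (7920 and 3720 CPM on average) and 6 of the 8 were higher in labelled wild type without overlap. Xbp1 ran from 356 to 541 CPM in labelled knockout and from 2460 to 3740 CPM in labelled wild type, Prdm1 from 0 to 20.7 and from 56.8 to 102 CPM, and Irf4 from 13.7 to 46.5 and from 118 to 180 CPM; Mzb1, Slamf7 and Sdc1 were the other 3. These marker levels move with every germinal centre difference given below, and their part in those differences was not tested. In bulk RNA, fewer cells of a type and less RNA per cell cannot be told apart.

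Nqo1 (ENSMUSG00000003849, chr8:107388225-107403206, minus strand, mm10) encodes NAD(P)H quinone dehydrogenase, which reduces quinones directly to hydroquinones and is widely used as a reporter of Nrf2 activity. It was listed at 112.0, 123.9 and 88.0 CPM in the 3 germinal centre libraries labelled wild type and at 0 in all 4 labelled knockout. The 2 groups did not overlap (27.4% of the 8522 genes tested in this table did not), and the wild-type mean was 108 ± 18.3 CPM (SD, n = 3). A count of 0 in the libraries labelled knockout allows up to 0.158 to 0.182 CPM. Of the 2177 genes with a labelled-wild-type mean of at least 88.0 CPM, 2 were listed at 0 in all 4 libraries labelled knockout, Nqo1 and Nupr1. Between 0.230% and 0.873% of these 2177 genes were at 0 in any single library labelled knockout, and in the reverse direction 16 of 2352 genes as high in labelled knockout were at 0 in all 3 labelled wild type. The reverse count asks for a 0 in 3 libraries rather than 4, so the 2 counts are not alike. The bound of 88.0 CPM is the lowest wild-type value of Nqo1 itself, and its zeros chose it. These counts therefore describe the selected pattern and do not test it.

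Outside the germinal centre gate Nqo1 was nearly always listed at 0. The rule that chose the set did not use these values, though earlier results of these data were known when the set was chosen. Nqo1 was listed at 0 in all 6 naive B cell libraries, at 1.66, 0 and 0 CPM in the spleen antibody-secreting cell libraries and at 0 in the 3 from bone marrow. So 11 of these 12 values were 0. Among naive libraries of either label, the gene was under the floor, which is at most 0.293 CPM, so no difference between the genotype labels was detectable there.

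**Figure D1:**
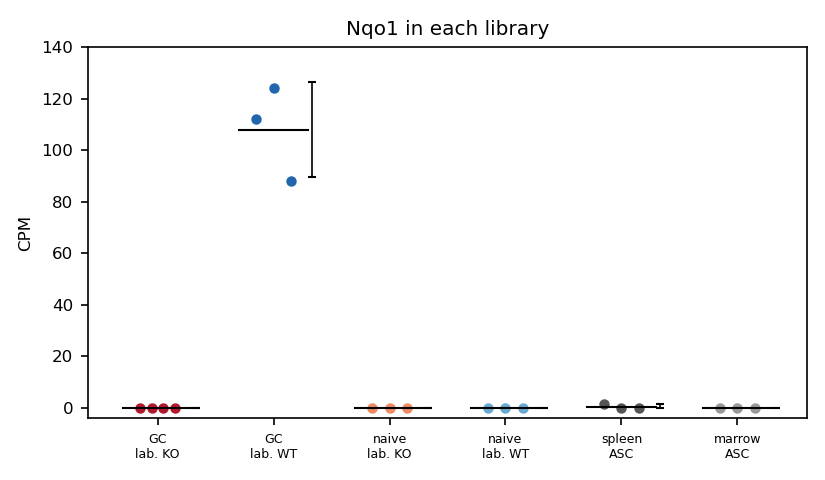
Nqo1 in each of the 19 libraries, in CPM on a linear axis, by group (GC, germinal centre; lab. KO and lab. WT, labelled knockout and wild type; ASC, antibody-secreting cells). Points are libraries, lines are group means and bars are the SD; the 3 germinal centre libraries labelled wild type stand at 88.0 to 123.9 CPM and the highest of the other 16 is at 1.66 CPM.

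For neither regulator did a difference between the genotype labels pass the test. Nfe2l2 (ENSMUSG00000015839, chr2:75675513-75704641, minus strand) was at 70.7, 85.1, 91.0 and 110 CPM in germinal centre libraries with the knockout label and at 74.3, 110 and 81.3 CPM in those labelled wild type. The ranges lay almost on top of each other, with means of 89.1 ± 16.1 (n = 4) and 88.4 ± 18.7 CPM (n = 3). The log2 fold change (knockout label over wild-type label, on log2(CPM + 1) as throughout) was 0.01 (SE 0.25, 95% interval -0.54 to 0.57, limma adjusted p = 0.98), and its sign turned under 5 alternatives that kept every library. Nfe2l2 in naive B cells stood at 127, 94.6 and 130 CPM in labelled knockout and 110, 81.7 and 119 CPM in labelled wild type, again overlapping (log2 fold change 0.18, SE 0.20, adjusted p = 0.869).

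Keap1 (ENSMUSG00000003308, chr9:21229730-21239361, minus strand) was low and scattered in the germinal centre table. Its values were 37.8, 22.4, 4.43 and 17.1 CPM under the knockout label and 2.80, 24.6 and 12.6 CPM under the wild-type label. These ranges overlap, and the log2 fold change of 0.65 had a wide interval, from -1.38 to 2.69 (adjusted p = 0.685). The naive libraries had it at 101, 50.3 and 74.1 CPM in labelled knockout and 52.5, 43.0 and 45.3 CPM in labelled wild type. The lowest knockout library lay inside the wild-type range. The log2 fold change of 0.62 (SE 0.26) had a limma adjusted p of 0.74 (0.0468 before adjustment), so it did not pass.

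The 2 subunits of glutamate-cysteine ligase, the rate-limiting enzyme of glutathione synthesis, gave no call in germinal centre B cells. Gclc, the catalytic subunit (ENSMUSG00000032350, chr9:77754535-77794485, plus strand), was at 11.4, 18.5, 32.9 and 31.1 CPM in labelled knockout and 23.7, 31.7 and 40.1 CPM in labelled wild type. The groups overlap, and the log2 fold change was -0.51 (SE 0.50, interval -1.64 to 0.63, limma adjusted p = 0.555). Gclm, the modifier subunit (ENSMUSG00000028124, chr3:122245557-122270732, plus strand), was at 37.0, 65.4, 7.50 and 27.9 CPM in labelled knockout and 10.3, 37.8 and 50.6 CPM in labelled wild type. Its log2 fold change of -0.01 had an SE of 0.78 (interval -1.78 to 1.75, adjusted p = 0.995), so a change of several fold in either direction lies within its error. Gclm is also uncertain as a measurement: a gene on the opposite strand, Gm17494, overlaps it at a mean of 233 CPM in the germinal centre table, and the strand setting of the counting is not given in the sources used here.

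Gclc and Gclm were, in naive B cells, under the mean of 10 CPM required for a test. Gclc was at 11.6, 10.0 and 6.66 CPM in labelled knockout and 3.52, 6.26 and 0.352 CPM in labelled wild type. The labels did not overlap, which was also so for 13.6% of the 8832 genes tested in naive B cells. Gclm, at 7.16, 6.72 and 9.36 CPM against 10.2, 1.89 and 4.61 CPM, did overlap.

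In the thioredoxin cycle, Txn1, the cytosolic thioredoxin that reduces protein disulphides (ENSMUSG00000028367, chr4:57943373-57956411, minus strand), was abundant in the germinal centre table. It stood at 241, 247, 192 and 250 CPM in labelled knockout and 207, 206 and 218 CPM in labelled wild type. The lowest value of all belonged to a library labelled knockout, the other 3 of that group lay above every wild-type library, and the log2 fold change was 0.14 (SE 0.16, interval -0.22 to 0.49, limma adjusted p = 0.617). Txnrd1, the selenoprotein that recharges thioredoxin with NADPH (ENSMUSG00000020250, chr10:82833951-82897712, plus strand), was at 45.3, 75.8, 8.25 and 46.9 CPM in labelled knockout and 76.0, 53.7 and 100 CPM in labelled wild type. The groups overlap at 1 knockout library, and the log2 fold change of -1.09 (SE 0.66, interval -2.59 to 0.41) did not pass (adjusted p = 0.326).

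The 2 thioredoxin genes overlapped between the genotype labels in naive B cells as well. Txn1 was at 19.3, 17.3 and 20.6 CPM in labelled knockout and 19.4, 25.9 and 18.6 CPM in labelled wild type (log2 fold change -0.14, SE 0.26, adjusted p = 0.933). Txnrd1 was at 48.3, 21.0 and 66.0 CPM and at 41.0, 16.5 and 36.7 CPM (0.47, SE 0.49, adjusted p = 0.86), the opposite sign to germinal centre B cells. Whether the 2 cell types differ in this effect was not tested, since they stand in separate tables.

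Prdx1, the peroxiredoxin that reduces hydrogen peroxide at the expense of thioredoxin (ENSMUSG00000028691, chr4:116685544-116700822, plus strand), was the single member other than Nqo1 that fell. In germinal centre B cells it was at 726, 679, 651 and 665 CPM in labelled knockout and 1043, 1111 and 923 CPM in labelled wild type. Every knockout library lay under every wild-type library, with means of 680 ± 32.8 (n = 4) and 1026 ± 95.4 CPM (n = 3). The log2 fold change was -0.59 (SE 0.12, interval -0.85 to -0.32), and limma's adjusted p was 0.0113, in a table where 5.09% of the genes tested were called lower. Without labelled-wild-type replicate 2 the adjusted p was 0.0663, and 17 of 18 alternatives kept the call.

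Some reads of Prdx1 may be shared with the processed pseudogenes Gm21399 and Gm7204, which hold 5.4% and 4.6% of its 50-base words. Adding these gave 814, 763, 739 and 744 CPM in labelled knockout and 1176, 1262 and 1077 CPM in labelled wild type, which did not overlap either. Prdx1 itself, in naive B cells, was at 176, 165 and 177 CPM in labelled knockout and 231, 179 and 205 CPM in labelled wild type. These did not overlap, and the difference did not pass (log2 fold change -0.24, SE 0.13, adjusted p = 0.772).

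Srxn1, the sulfiredoxin that repairs overoxidized peroxiredoxins (ENSMUSG00000032802, chr2:152105516-152111376, plus strand), was barely detected. It was at 4.72, 0, 0 and 0 CPM in germinal centre libraries labelled knockout and 1.20, 4.64 and 0 CPM in those labelled wild type. It failed the filter on low values, and its ranges overlap.

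**Figure D2:**
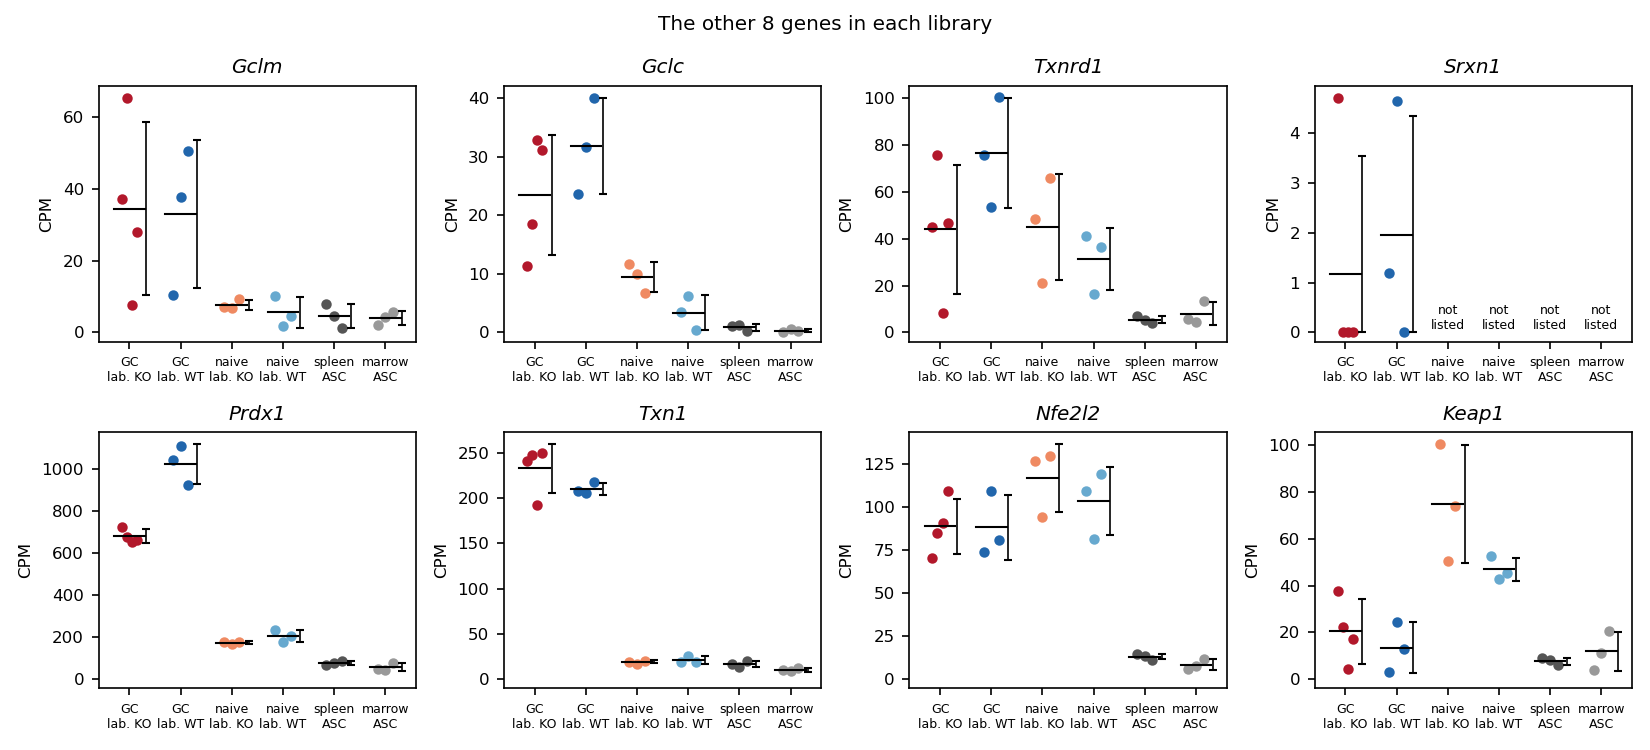
The other 8 genes in each library, in CPM on linear axes that differ between panels, by group (GC, germinal centre; lab. KO and lab. WT, labelled knockout and wild type; ASC, antibody-secreting cells). Points are libraries, lines are means and bars are the SD (lower ends stop at 0); in the germinal centre table Prdx1 separates the genotype labels, at 651 to 726 against 923 to 1111 CPM, while the others overlap.

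Counted together, 8 of the 9 members passed the filter in germinal centre B cells, all but Srxn1. Of the 7 tested without Nqo1, 1 (Prdx1) was lower in labelled knockout, none was higher and 6 did not pass. Over all genes, 1162 of 8522 tested were called (13.6%), 434 of them lower (5.09%) and 728 higher (8.54%), and the groups did not overlap for 27.4%, so 1 call among 7 stands beside a background of that size. The median log2 fold change of the 7 was -0.01, beside 0.03 over all genes tested. Under median-ratio scaling the median of all genes moved by -0.14, and the calls split into 560 higher and 541 lower. In naive B cells 5 of the 8 listed members passed the filter and none was called, with a median of 0.18 beside -0.01 for all genes. No gene at all was called there (0% of 8832), although 587 had p under 0.05 before adjustment by limma, 325 higher and 262 lower, and the smallest adjusted p was 0.728.

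Genes of 3 further lists were examined: other Nrf2 targets, regulators of the pathway, and other thioredoxin, glutathione and peroxide genes. In germinal centre B cells 46 of their 61 genes were tested, 5 were higher and 3 were lower in labelled knockout, and 38 did not pass. The calls thus went in both directions, at 8 of 46 beside 13.6% of all genes. The median log2 fold change of the 46 genes was -0.36, beside 0.03 over all genes tested. It was negative for 27 of the 46, beside 4169 of all 8522. Without overlap, 12 of the 46 were lower and 8 higher in labelled knockout, beside 1000 lower and 1332 higher of the 8522. Some of the 46 genes averaged under 10 CPM in a single label and passed the filter only through the other. Most of these, with Gstm1 and Sesn2 (below) among them, were the ones low in labelled knockout, so the negative median rests partly on them.

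Among the other Nrf2 targets, 17 of 26 were tested, 2 fell, 1 rose and 14 did not pass (median -0.47). Ftl1, the ferritin light chain that stores iron, was at 2990, 1782, 1252 and 1510 CPM in labelled knockout and 7912, 7337 and 6551 CPM in labelled wild type. It fell by 2.02 on the log2 scale (SE 0.26, limma adjusted p = 0.00161), with no overlap. Its near-identical pseudogene Ftl1-ps1 took almost the same reads (Ftl1 held 50.1% to 51.8% of the pair in every germinal centre library), so the value is that of the pair, at 3729 ± 1544 and 14341 ± 1559 CPM. Gstm1, a glutathione S-transferase, was at 11.4, 0, 6.86 and 0 CPM against 59.7, 53.8 and 43.0 CPM. Its mean of 4.56 CPM in labelled knockout was under the 10 CPM required for a test. It therefore entered the test only through the libraries labelled wild type, where it is high. It fell by 4.07 (SE 1.04, adjusted p = 0.0326). This was called in 11 of 18 alternatives, and the p ran from 0.00831 to 0.129; leaving out labelled-wild-type replicate 1, 2 or 3 ended the call (0.123, 0.129 and 0.103).

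Blvrb, the flavin and biliverdin reductase that is abundant in red cells, moved the other way. It was at 126, 89.8, 88.2 and 154 CPM in labelled knockout and 36.9, 45.4 and 35.4 CPM in labelled wild type, with no overlap, and it rose by 1.49 (SE 0.28, adjusted p = 0.00888). The sums of erythroid markers in the same libraries were 2977.5, 324.1, 29.7 and 142.1 CPM in labelled knockout and 2.4, 0.1 and 0.1 CPM in labelled wild type, and their part in the rise was not tested. With replicate 1 of labelled knockout and replicate 3 of labelled wild type left out, its adjusted p was 0.0918. Taldo1, a transaldolase of the pentose phosphate pathway, was at 214 ± 27.2 CPM (n = 4) and 134 ± 25 CPM (n = 3) and just missed the threshold (log2 fold change 0.68, adjusted p = 0.0508).

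Hmox1, the haem oxygenase that is both a Nrf2 target and a marker on the macrophage list, stood at 270, 20.1, 37.0 and 36.7 CPM in labelled knockout and 33.9, 61.2 and 10.4 CPM in labelled wild type. The groups overlap and it was not called (adjusted p = 0.565). Its highest library was also the one with the largest macrophage sum, 2421.9 CPM, but that sum counts Hmox1 itself. The part of macrophages in this value was not tested.

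Among the regulators, 9 of 12 were tested, 1 rose, 1 fell and 7 did not pass (median -0.16). Bach2, a repressor that competes for elements of this kind and restrains plasma cell differentiation, was at 142, 66.7, 166 and 76.0 CPM in labelled knockout and 14.5, 32.7 and 50.2 CPM in labelled wild type. It rose by 1.82 (SE 0.48, limma adjusted p = 0.0377), a call kept in 10 of 18 alternatives (p from 0.0214 to 0.113) and lost without labelled-knockout replicate 1 or 3 or without labelled-wild-type replicate 1 or 2. Sqstm1, the autophagy receptor p62 that binds Keap1, was at 127, 114, 42.3 and 217 CPM against 420, 322 and 292 CPM. It fell by 1.65 (SE 0.46, adjusted p = 0.0459). The call was kept in 9 of 18 alternatives (p from 0.0107 to 0.159) and lost without any 1 of the 3 libraries labelled wild type, or without labelled-knockout replicate 1 or 2. Of the ligase subunits, Rbx1 was at 304 ± 17.7 and 214 ± 24.5 CPM (log2 fold change 0.51, adjusted p = 0.052) and Cul3 at 94.6 ± 9.3 and 57.3 ± 14.6 CPM (0.74, adjusted p = 0.0867), and neither passed.

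Among the other thioredoxin, glutathione and peroxide genes, 20 of 23 were tested, 3 rose, none fell and 17 did not pass, while the median was -0.37. The direction of the calls is therefore opposite to that of the median. Without overlap, 7 of the 20 were lower and 3 higher in labelled knockout, beside 1000 lower and 1332 higher of all 8522 genes tested. Txnip, which binds and inhibits thioredoxin, was at 83.5, 138, 69.2 and 56.0 CPM in labelled knockout and 12.8, 13.9 and 12.5 CPM in labelled wild type, and rose by 2.56 (SE 0.39, limma adjusted p = 0.00326). Glrx3, a glutaredoxin of iron-sulphur cluster handling, was at 177, 175, 178 and 164 CPM against 64.7, 77.3 and 73.9 CPM and rose by 1.26 (SE 0.18, adjusted p = 0.00234). Sesn1, a stress-induced sestrin, was at 62.7, 107, 107 and 65.8 CPM against 20.7, 15.1 and 32.2 CPM and rose by 1.89 (SE 0.38, adjusted p = 0.011). These 3 calls held in all 18 alternatives. No value of these 3 genes overlapped between the labels. Sesn2, a relative of Sesn1, was at 14.1, 0, 0 and 3.57 CPM against 31.0, 17.4 and 65.0 CPM, and its log2 fold change of -3.55 did not pass (SE 1.12, adjusted p = 0.0687).

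Of the 3 lists, 40 genes were tested in naive B cells and none was called. Ftl1 stood at 1567 ± 56.7 and 1519 ± 29.0 CPM (n = 3 each), Sesn1 at 102 ± 24.6 and 92.2 ± 9.6 CPM, Glrx3 at 30.6 ± 2.0 and 30.5 ± 6.4 CPM and Sqstm1 at 244 ± 26.5 and 248 ± 38.8 CPM in labelled knockout and labelled wild type. All of these overlap between the labels.

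**Figure D3:**
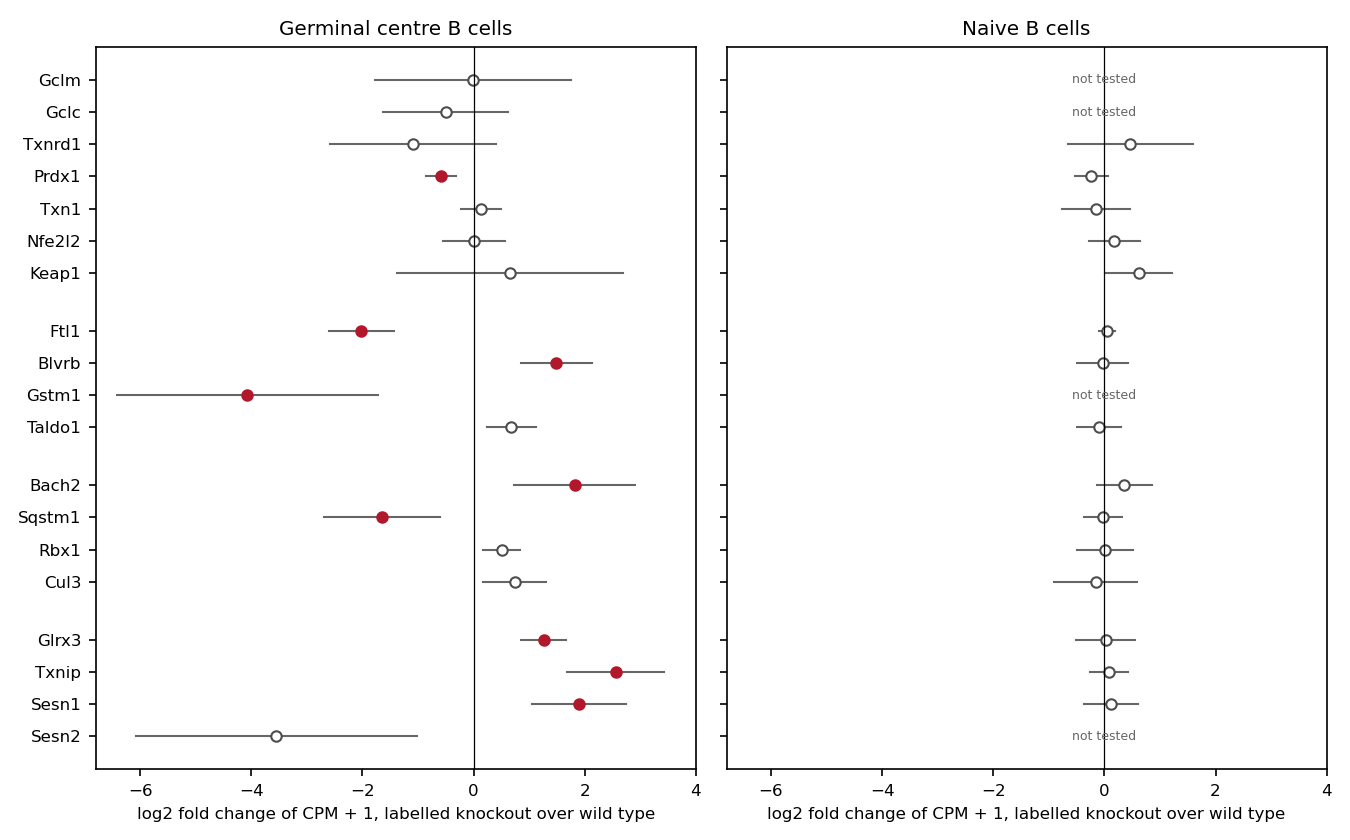
Log2 fold change between the genotype labels (knockout over wild type) for the 7 tested members other than Nqo1 and for the 4 genes with the smallest p of each list (points), with 95% intervals (lines), in germinal centre and naive B cells. Filled points passed an adjusted p of 0.05; Prdx1 is the single filled member, 8 further genes are filled in germinal centre B cells and none in naive B cells.

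Across cell types, levels are described without a test, since the 4 tables were made separately. Immunoglobulin genes took 61.5% to 70.2% of the reads in antibody-secreting cells, 2.3% to 13.2% in germinal centre and 3.7% to 4.1% in naive libraries, so the levels are also given as CPM of the reads outside these genes (non-immunoglobulin CPM). Nfe2l2 was at 14.7, 13.6 and 11.5 CPM in spleen and 5.82, 7.94 and 12.1 CPM in bone marrow antibody-secreting cells. In non-immunoglobulin CPM its group means ordered as naive labelled knockout 122, naive labelled wild type 108, germinal centre labelled wild type 99.8, germinal centre labelled knockout 94.5, spleen antibody-secreting cells 36.4 and those of bone marrow 26.3. The first 4 overlapped neighbour by neighbour, the last 2 overlapped each other, and a gap lay between these sets.

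Keap1 ordered differently. It was at 8.81, 8.07 and 5.79 CPM in spleen and 3.87, 11.1 and 20.6 CPM in bone marrow antibody-secreting cells. Its means in non-immunoglobulin CPM were 78.0 and 48.8 in naive B cells labelled knockout and wild type, then 36.0 in bone marrow antibody-secreting cells, 21.4 in germinal centre B cells labelled knockout, 20.7 in spleen antibody-secreting cells and 15.3 in germinal centre B cells labelled wild type. Every pair of neighbours in this order overlapped.

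Gclc, Txnrd1 and Gclm had their highest mean, on that scale, in germinal centre B cells labelled wild type. Gclc averaged 36.0 and 24.99 in germinal centre B cells labelled wild type and knockout, 3.52 and 9.82 in naive B cells, 2.41 in spleen and 0.888 in bone marrow antibody-secreting cells. Txnrd1 averaged 86.3 and 46.5 in germinal centre, 32.7 and 46.8 in naive, 14.9 in spleen and 23.9 in bone marrow cells, with every pair of neighbours overlapping. Gclm averaged 37.6 and 36.3 in germinal centre B cells and 5.81 to 12.4 in the other 4 groups, and neighbours overlapped as well. The pseudogene Gm6061 lies over Gclm on the same strand and holds 3.1% of its sequence words, the measure given above for Prdx1. Gm6061 averaged 424 CPM in the naive table and was not listed in the germinal centre table. Ppia and the pseudogene Gm10123 hold 3.2% and 3.1% of these words. The part of such shared reads in the levels of Gclm across tables was not tested.

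The comparison of Txn1 and Prdx1 across tables is also limited by pseudogenes. Prdx1 was at 1153 and 719 non-immunoglobulin CPM in germinal centre B cells labelled wild type and knockout, and at 169 to 214 in the other 4 groups. Prdx1 held 85.6% to 89.3% of its sum with Gm21399 and Gm7204 in germinal centre libraries but 33.5% to 37.1% in all others, so the tables may have split these reads differently. The summed CPM were 1172 ± 92.1 and 765 ± 34.2 in germinal centre B cells labelled wild type and knockout and 589 ± 74.2 and 508 ± 26.8 in naive B cells. Txn1 held 96.0% to 98.9% of its sum with Txn-ps1 in germinal centre libraries and 27.0% to 32.0% elsewhere, and the sums were 215 and 236 CPM in germinal centre, 70.3 and 67.3 CPM in naive, 59.9 CPM in spleen and 35.9 CPM in bone marrow cells. The order of the cell types is the same with and without the pseudogenes for these 2 genes in CPM, and the ratios between germinal centre and other cells are smaller with them. In non-immunoglobulin CPM that order did not hold for Txn1 outside germinal centre B cells. Its means were 44.9 in spleen and 31.4 in bone marrow antibody-secreting cells. They were 22.2 and 19.8 in naive B cells labelled wild type and knockout, with no overlap between the 2 cell types. Prdx1 overlapped neighbour by neighbour among these 4 groups on that scale.

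Compared per kilobase of annotated exon, the members spread widely within the germinal centre libraries labelled wild type. Prdx1 led with 337 CPM per kilobase, followed by Txn1 with 200, Nqo1 with 69.5, Nfe2l2 with 23.3, Txnrd1 with 10.8, Gclc with 8.46, Gclm with 5.23, Keap1 with 2.84 and Srxn1 with 0.691. In those labelled knockout Prdx1 and Txn1 were at 224 and 221 CPM per kilobase, and Nqo1 was listed at 0.

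The genes whose pattern was most like that of Nqo1 were not members of the pathway lists. Over the 19 libraries, the highest Pearson correlations of log2(CPM + 1) with Nqo1 among 7160 genes were those of P2rx3 (0.97), Cox6a2 (0.95), Cish (0.93), Cdkn1a (0.93) and Nupr1 (0.92). The 7160 genes compared were listed for all cell types and averaged at least 10 CPM over the 19 libraries. P2rx3 is an ATP-gated ion channel, Cox6a2 a muscle-type subunit of cytochrome c oxidase, Cish a suppressor of cytokine signalling, Cdkn1a the cell cycle inhibitor p21 and Nupr1 a stress-induced nuclear protein. These values describe libraries that share a table and a group, and nearly all rest on the contrast between 3 libraries and the other 16. Among the members the correlation was 0.57 for Prdx1 (rank 454), 0.52 for Txn1, 0.50 for Gclc, 0.46 for Txnrd1, 0.44 for Gclm, 0.21 for Nfe2l2 and -0.29 for Keap1.

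In the 3 germinal centre libraries labelled wild type P2rx3 was at 48.7, 80.4 and 77.0 CPM, Cish at 80.6, 43.0 and 89.0 CPM and Nupr1 at 146, 113 and 74.9 CPM, and all 3 were listed at 0 in the 4 labelled knockout. Cox6a2 was at 111, 79.3 and 40.0 CPM against 2.47, 0, 0 and 0 CPM. Cdkn1a was at 578, 587 and 595 CPM against 9.03, 8.93, 0 and 0 CPM. In naive and antibody-secreting cell libraries these 5 genes did not exceed 6.97 CPM. Since none of them exceeded 9.03 CPM outside the 3 germinal centre libraries labelled wild type, they passed the mean of 10 CPM only through those libraries. They were picked for this pattern, so it is given as a description, and the lower correlations of the members are no test against it.

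**Figure D4:**
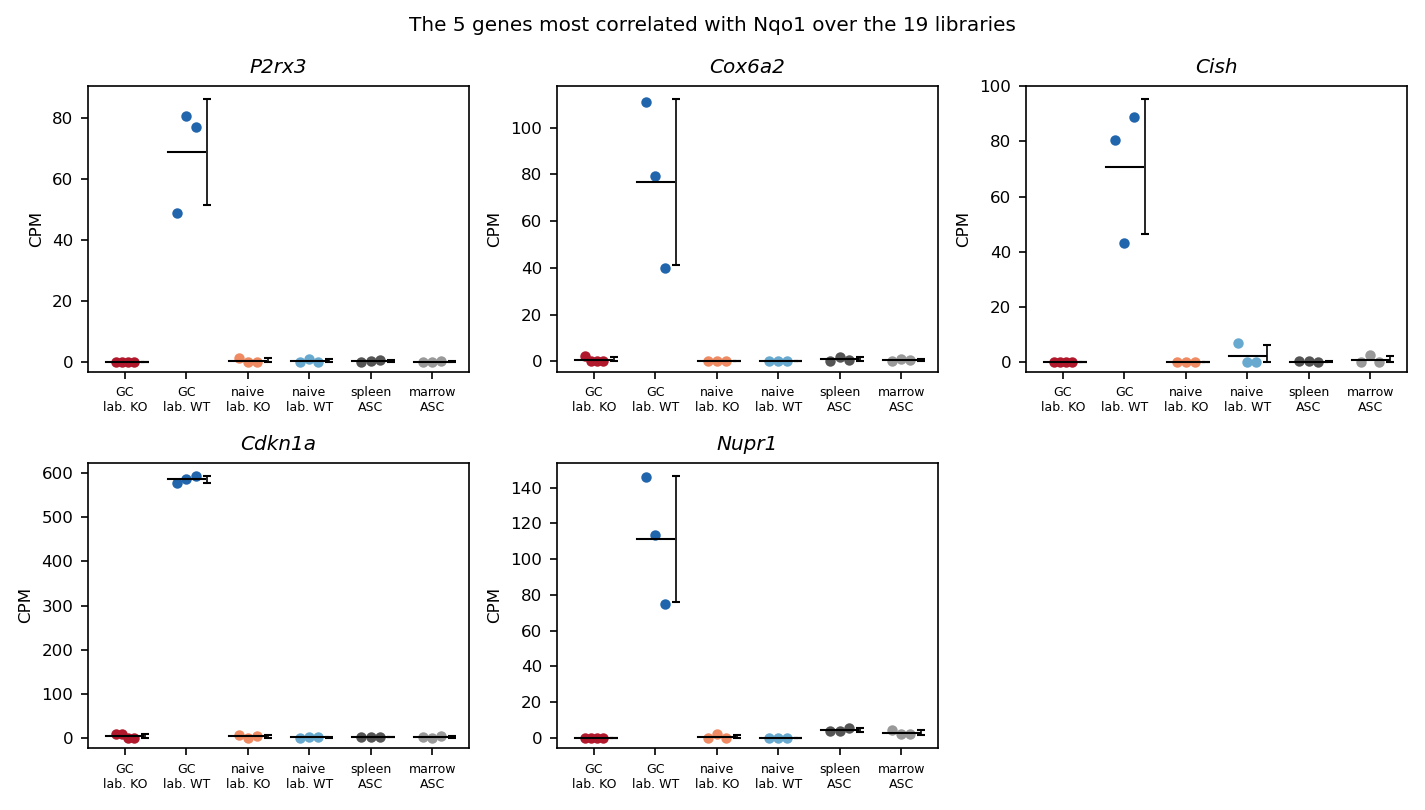
The 5 genes most correlated with Nqo1 over the 19 libraries, in CPM on linear axes that differ between panels, by group (GC, germinal centre; lab. KO and lab. WT, labelled knockout and wild type; ASC, antibody-secreting cells). Points are libraries, lines are means and bars are the SD (lower ends stop at 0); Cdkn1a stands at 578 to 595 CPM in the 3 germinal centre libraries labelled wild type and at 9.03 CPM or less in all others.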

How the data were processed

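RNA was sequenced from 19 libraries of sorted B lineage cells. Alignment was with STAR and the build was mm10, per the submitters' processing notes, without a version. The counting tool is not given in the sources used here, nor is the annotation or the strand setting. The authors deposited CPM values in 4 tables; to each germinal centre value 0.0001 had been added, and it was subtracted here. Elsewhere, 18 gene names over 19 rows had become dates and were left out. Low values were not all whole multiples of 1 read, so no count test was used.

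Within each table, genes averaging at least 10 CPM entered a test with limma 3.58.1 (trend, R 4.3.3) on log2(CPM + 1) without covariates, and Benjamini-Hochberg adjusted p under 0.05 was called. On this scale the change of low genes is understated. The fit was tested on simulated data. Groups came from the sample labels.

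Positions came from GENCODE M21. Tables were handled with Python 3.11.15 and pandas 2.3.3, and figures drawn with matplotlib 3.10.9. The alternatives covered the pseudocount, filter, scaling, sample weights, robust estimation, a replicate block and leaving out each library. The text names all 9 members, up to 4 genes of each list with the smallest germinal centre p, the 5 genes most correlated with Nqo1 (predicted genes and immunoglobulin segments left out), Pik3cg and markers; Hmox1 was added after its values were seen. The members and lists were chosen with earlier results of these data known. Of the 9 marker lists, the naive B, neutrophil, NK and dendritic sums in germinal centre libraries labelled knockout and wild type ran from 3513.4 to 3897.2 and 3080.7 to 4611.8, 0 to 232.7 and 0 to 0.6, 3.0 to 37.8 and 8.7 to 10.1, and 23.8 to 72.0 and 27.3 to 38.7 CPM.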

Additional observations from a re-analysis of the deposited data

Results flagged for a closer look

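In the 4 germinal centre libraries labelled knockout, 22 genes were checked for a single library far from the other 3, and 3 had one. Chance gives about 1 in 20, but this rate does not apply to Srxn1 and Cox6a2, where the other 3 libraries are tied at 0 and any value above 0 stands apart. Srxn1 was at 4.716 CPM in replicate 1 and at 0 in the other 3. Txn1 was at 192.2 CPM in replicate 3, with the other 3 at 241 to 250 CPM. Cox6a2 was at 2.473 CPM in replicate 1 and at 0 in the other 3.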

How the results depend on the processing

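The adjusted call for Prdx1 in germinal centre B cells held in 17 of 18 alternatives, with log2 fold changes of -0.73 to -0.53 in all and -0.66 to -0.53 over libraries left out; the count of members called other than Nqo1 was 0 without labelled-wild-type replicate 2 and 1 otherwise. The number of genes called over the whole germinal centre table was 1162, ran from 603 to 1134 when a library was left out (732, 603 and 712 without labelled-wild-type replicates 1, 2 and 3), and was 432 without both labelled-knockout 1 and labelled-wild-type 3. The 8 calls in the 3 lists became 5 with no filter on low values, 13 with sample weights, 5 to 9 when a library was left out (5 without labelled-wild-type replicate 1 or 2) and 5 without both of those libraries. Members that were not called changed sign: Gclm to 0.00 with a pseudocount of 5, 0.07 with quantile normalization, 0.28 without both libraries and -0.67 to 0.56 over libraries left out; Txn1 to -0.00 with median-ratio scaling; Nfe2l2 to -0.13 with median-ratio scaling, -0.09 with quantile normalization, -0.10 with sample weights, -0.07 in non-immunoglobulin CPM and -0.10 to 0.18 over libraries left out; Keap1 to -0.11 to 1.27 over libraries left out. With a replicate block 831 genes were called, Nfe2l2 was at -0.09 and the Prdx1 call held (adjusted p = 0.0457), but same-numbered libraries did not deviate together (correlations 0.08, 0.00 and 0.01 in germinal centre and -0.05, 0.04 and -0.03 in naive B cells), so the numbers do not pair them. By the numbers in the column names, which swap germinal centre wild-type replicates 2 and 3, these pairs had correlations of 0.03 and 0.00. The cause of these changes was not tested, other than that fewer libraries entered some fits. In naive B cells no gene was called under any of the 16 alternatives. The log2 fold change of Nqo1 ran from -10.06 with a pseudocount of 0.1 to -4.48 with 5, since it is set by the pseudocount where a group is at 0. Leaving out both named libraries and the use of non-immunoglobulin CPM were chosen after seeing the data. Where Nqo1 is listed at 0, depth sets the upper bound of its value, which for counting error alone is at most 0.293 CPM in any library.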
